A study of Homo sapiens with 6 samples.

Results

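Axon guidance ligands and receptors were examined in the lung adenocarcinoma cell line A549, of human origin. The control group expressed a scramble shRNA and stands for wild type in the labels, and the knockdown group expressed an shRNA against C19orf12. The labels name no other shRNA against this gene, so other effects of the shRNA cannot be told apart from lower C19orf12. Polyadenylated RNA of 3 scramble and 3 knockdown libraries was sequenced, with total estimated counts of 10229890 to 10647587 per library. C19orf12 encodes a membrane protein of mitochondria and the endoplasmic reticulum. Separate cultures or clones are not stated for the replicates, so p-values cover only the spread between these libraries. The genes were taken by a rule on symbols, and the rule was proposed with earlier results of these data known. It covers semaphorins, plexins, neuropilins, netrins, the netrin receptors DCC, NEO1 and UNC5A to UNC5D, slits, roundabout receptors, ephrins and Eph receptors. Of 70 symbols that fit the rule, 69 were listed in at least 1 library, among 20824 genes in all, and 59 were listed in all 6 libraries. EPHA7 is not analysed here.

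Axon guidance molecules steer growing nerve fibres by attraction or repulsion. Secreted semaphorins bind neuropilins and signal through plexins, netrins bind DCC, NEO1 and the UNC5 receptors, slits bind roundabout receptors, and ephrins on one cell bind Eph receptor tyrosine kinases on the next. The same molecules regulate adhesion, migration and vessel growth in epithelial and tumour cells, and UNC5 receptors, DCC and NEO1 are known as dependence receptors, which can promote cell death when no ligand is bound.

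The targeted gene itself measured 42.5, 41.1 and 63.3 CPM (TMM-scaled counts relative to library size) in scramble replicates 1 to 3 and 24.2, 26.3 and 25.2 CPM in the knockdown libraries, so that 51.6% of the mean C19orf12 level was left (log2 fold change -0.95, SE 0.20, edgeR adjusted p = 0.015). Without scramble replicate 3, its highest library, C19orf12 fell 1.66-fold (log2 fold change -0.73, SE 0.07, edgeR adjusted p = 3.17e-08). Scramble replicate 3 stood apart: across genes, which are not independent replicates, its log2 CPM correlated at 0.952 and 0.953 with the other scramble libraries. The latter correlated with each other at 0.991 and with the knockdown libraries at 0.9585 to 0.9602. The replicates' common coefficient of variation fell from 18.9% to 2.97% when scramble replicate 3 was left out, so small differences pass the test in that setting. The shift of this library followed GC content among the genes described here too. Of 28 tested members with a transcript GC content of at least 55%, 25 had a higher level in scramble replicate 3 than the mean of the other scramble libraries. Their group's median shift was 0.51 on the log2 scale. Of 14 with under 50% GC, 12 had a lower level, and the median shift was -0.78. Over the 46 tested members with a GC value, the Spearman correlation of GC content with this shift was 0.61 and the Pearson correlation was 0.77, against 0.74 and 0.71 over 14231 genes. The part of GC content in the differences between the groups was assessed only by the correction given in the closing section. All 14 markers of lung epithelium and A549 cells were listed, 7 of them above 5 CPM on average, with a summed level of 17900 to 20200 CPM in scramble and 25900 to 26400 CPM in knockdown libraries, and 3 of 11 tested rose. KRT8, KRT18, ALDH1A1, AKR1B10, NQO1 and AKR1C1 made up most of this sum, and KRT8, KRT18 and KRT19 were the 3 that rose. KRT19 was low, at 0, 0.0927 and 0.484 CPM in scramble and 2.10, 2.69 and 1.98 CPM in knockdown libraries. It was tested only through the group in which it was high. CDH1 (means of 136 and 167 CPM), EPCAM (1.12 and 2.36 CPM) and CLDN4 (2.11 and 2.09 CPM) were not called. The alveolar markers were low, with mean levels in scramble and knockdown libraries of 2.65 and 3.05 CPM for SFTPB, 0.938 and 0.696 CPM for NAPSA, 0.249 and 0.232 CPM for NKX2-1 and 0.0322 and 0.0333 CPM for SFTPC. Of 10 neuron markers 8 were listed, with sums of 168 to 220 and 182 to 194 CPM, mostly TUBB3 and RBFOX3. NEFM and ELAVL3 stayed at or under 0.132 CPM on average in either group, and ELAVL4 and STMN2 had no listed counts. Among 6 neuron markers tested, SNAP25 rose from a mean of 9.69 to 20.9 CPM and NEFL from 3.32 to 8.33 CPM, and RBFOX3 fell from 74.4 to 29.9 CPM. MAP2 (17.0 and 24.5 CPM), TUBB3 (81.2 and 102 CPM) and SYP (3.93 and 3.42 CPM) were not called, and the part of these markers in the results below was not tested. Endothelial markers summed to at most 4.55 CPM, fibroblast markers to 36.6 to 47.8 CPM in scramble and 24.1 to 26.4 CPM in knockdown libraries, and immune markers to 53.6 to 62.4 and 61.8 to 70.2 CPM. The fibroblast sum was nearly all COL1A1, which fell from a mean of 41.1 to 24.4 CPM. COL1A2, COL3A1, DCN, LUM and PDGFRB stayed at or under 0.498 CPM on average in either group. In bulk RNA, fewer cells that express a gene and less RNA per cell cannot be told apart.

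**Figure D1:**
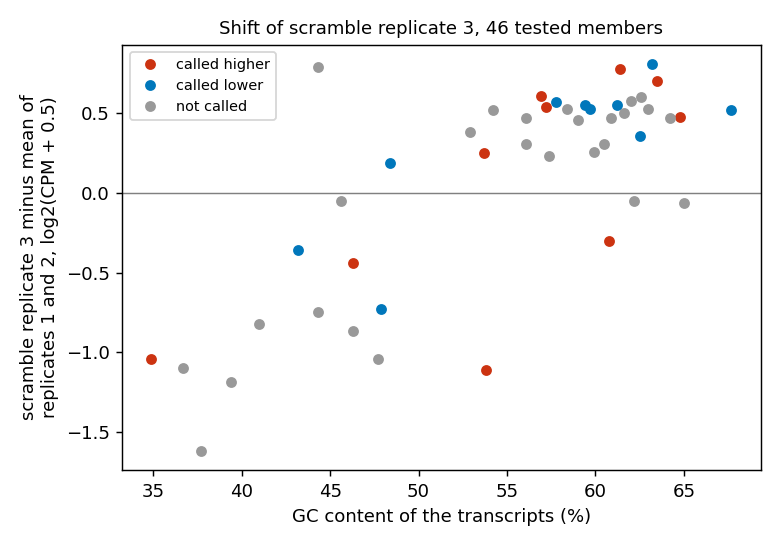
Level in scramble replicate 3 minus the mean level of the other scramble libraries on the log2(CPM + 0.5) scale (vertical axis) against the GC content of the transcripts in percent (horizontal axis), for 46 tested axon guidance genes. Points are genes, coloured by their call with all 6 libraries; genes of at least 55% GC lie mostly above 0 and genes under 50% GC mostly below it.

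The design compares the knockdown group with the control group. Axon guidance genes moved in both directions. The ephrin genes EFNA1 and EFNA3, the semaphorin genes SEMA3B, SEMA3D and SEMA3F, SEMA4G, the neuropilin gene NRP2, the plexin gene PLXND1, SLIT2 and UNC5D rose. The netrin genes NTN1 and NTN4, the netrin receptor genes UNC5B and NEO1, SLIT1, ROBO3, EFNA5, EPHB2, SEMA4B and SEMA6B fell. Of 47 members that passed the filter on low counts, 10 rose and 10 fell by edgeR's quasi-likelihood test at an adjusted p under 0.05, which is 42.6% of those tested. Over all 14812 genes tested 11.5% were called, 5.89% higher and 5.64% lower. The median log2 fold change of the tested members was -0.29, against 0.02 over all genes. The groups did not overlap for 34 of the 47 members, 12 higher and 22 lower, where 37.0% of all genes tested had groups that did not overlap. For SEMA3D, UNC5D and SLIT2 the 3 knockdown libraries met the filter's minimum and no scramble library did, so these members passed through the group in which they were high. For EFNB3 and EPHB3 all scramble libraries met the minimum and not all knockdown libraries did. The reverse held for EPHA5, with 24, 21 and 10 counts in scramble libraries, and none of these 3 members was called. The members were also proposed with earlier results of these data known. The counts over tested members are therefore a description.

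Without scramble replicate 3, 14 of 48 tested members rose and 20 fell, against 25.7% and 23.8% of 15029 genes, or 49.5% together. All 20 members called with all 6 libraries were called there in the same direction. With a log2 fold change of at least 1 in size as a further condition, 9 rose and 3 fell without that library, where 6.77% of all genes met both conditions. Without knockdown replicate 1, 2 or 3, 7 members rose in each case and 1, 2 and 1 fell, where 5.09%, 4.93% and 4.85% of all genes tested were called in either direction. The 8 members SEMA3B, SEMA3D, SEMA3F, NRP2, UNC5B, SLIT2, EFNA1 and EFNA3 were called with each of the 6 libraries left out in turn. Of these, SEMA3D and SLIT2 passed the filter through the knockdown group, in which they were high. The share of all genes called in each of these settings is not given here. The other 12 called members lost the call without at least 1 library, and their values are given with each gene.

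**Figure D2:**
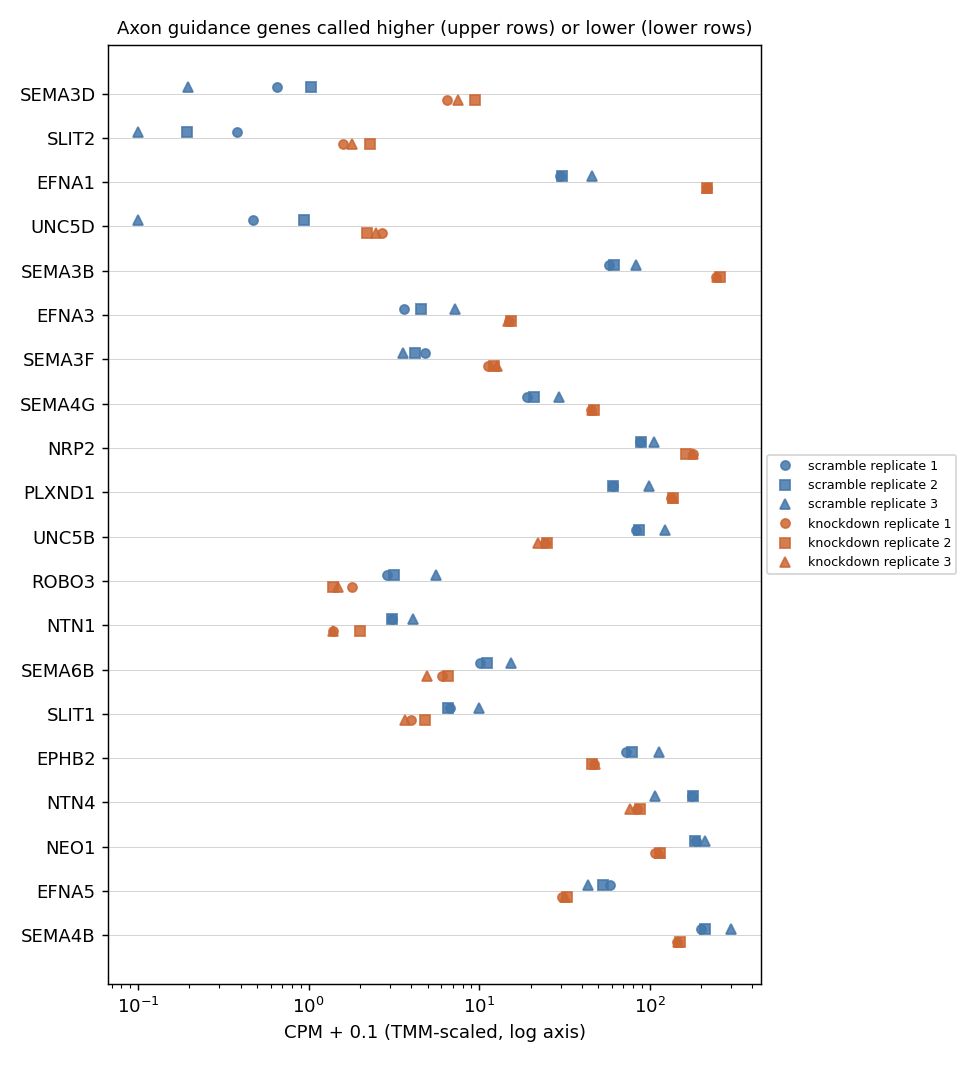
Levels of the 20 called axon guidance genes in each library, as CPM + 0.1 on a log axis, with scramble libraries in blue, knockdown libraries in orange and a marker shape for each replicate number. The 10 genes in the upper rows have every knockdown library above every scramble library, and the 10 in the lower rows have every knockdown library below.

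**Figure D3:**
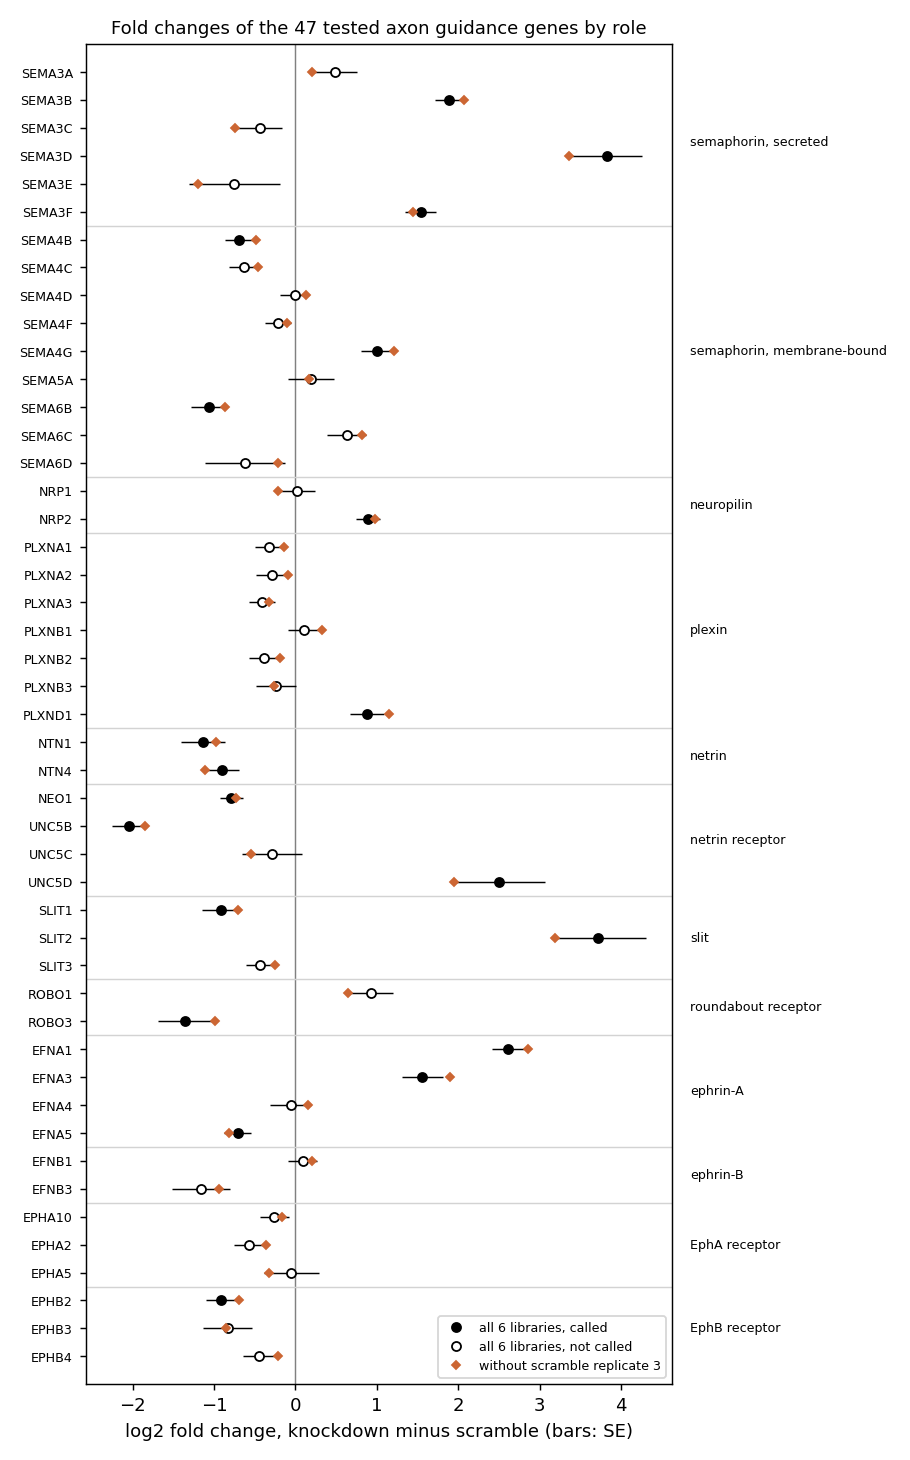
Log2 fold changes of the 47 tested members, knockdown minus scramble, grouped by role, with bars of 1 SE. Filled circles were called with all 6 libraries, open circles were not, and diamonds give the value without scramble replicate 3; EFNA1 at 2.61 and UNC5B at -2.05 lie on opposite sides.

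Ephrin-A ligands, which are held in the membrane by a lipid anchor, included 2 genes that rose and 1 that fell among 4 tested. That is 75.0% called, against 11.5% of all genes tested. EFNA1 (Entrez gene 1942, chromosome 1) measured 29.8, 30.4 and 46.04 CPM in scramble and 217, 216 and 218 CPM in knockdown libraries, in the order of the replicate numbers. The lowest knockdown library was thus well above the highest scramble library, scramble replicate 3. EFNA1 rose 6.13-fold, with a log2 fold change of 2.61 (SE 0.20, edgeR adjusted p = 7.16e-05). EFNA3 (Entrez gene 1944, chromosome 1), another ephrin-A, measured 3.53, 4.45 and 7.16 CPM in scramble and 14.8, 15.3 and 14.6 CPM in knockdown libraries. It rose with a log2 fold change of 1.56 (SE 0.25, edgeR adjusted p = 0.00385). EFNA4 measured 4.55, 3.62 and 6.09 CPM in scramble and 5.39, 4.39 and 3.87 CPM in knockdown libraries, and its groups overlapped. Its log2 fold change was -0.06 (SE 0.25, adjusted p = 0.916). EFNA5 moved the other way, from 58.4, 53.3 and 43.3 CPM in scramble to 30.5, 32.7 and 31.6 CPM in knockdown libraries. EFNA5 fell with a log2 fold change of -0.71 (SE 0.17, edgeR adjusted p = 0.0248). Its call was lost without scramble replicate 1 (-0.62) or 2 (-0.69) and without knockdown replicate 1 (-0.68), 2 (-0.74) or 3 (-0.71). EFNA2 was too low to be tested.

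EFNA4, EFNA3 and EFNA1 are neighbours on chromosome 1, in that order in the RefSeq annotation of GRCh38.p14, which was used for names and order. The next protein-coding genes on either side were not called: ADAM15 had a log2 fold change of -0.51 (adjusted p = 0.134) and SLC50A1 of -0.23 (adjusted p = 0.52). Without scramble replicate 3 ADAM15 passed at -0.28 (adjusted p = 8.26e-05). A read-through gene, EFNA4-EFNA3, overlaps both names, and reads from it cannot be told apart here from reads of EFNA4 or EFNA3. Promoters of the 3 neighbours are shown because EFNA3 and EFNA1 rose while EFNA4 was not called. Each is the RefSeq window from 250 bases before to 50 bases after the start, on the plus strand of GRCh38.p14, with matches to the GC box GGGCGG and to CCAAT, on either strand, in capitals. The windows are chr1:155063490-155063789 for EFNA4, chr1:155078587-155078886 for EFNA3 and chr1:155127626-155127925 for EFNA1.
EFNA4: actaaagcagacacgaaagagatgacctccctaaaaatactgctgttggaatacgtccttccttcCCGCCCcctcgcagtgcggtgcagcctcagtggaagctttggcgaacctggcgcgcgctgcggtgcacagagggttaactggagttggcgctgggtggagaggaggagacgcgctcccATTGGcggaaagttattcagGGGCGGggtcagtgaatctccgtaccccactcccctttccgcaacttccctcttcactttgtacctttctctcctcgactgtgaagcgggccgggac
EFNA3: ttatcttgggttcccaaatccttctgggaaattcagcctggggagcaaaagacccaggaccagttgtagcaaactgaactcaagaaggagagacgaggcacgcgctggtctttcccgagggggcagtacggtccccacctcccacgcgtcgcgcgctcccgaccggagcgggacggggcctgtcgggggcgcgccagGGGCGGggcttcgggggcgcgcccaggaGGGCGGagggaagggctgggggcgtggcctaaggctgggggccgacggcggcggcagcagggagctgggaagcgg
EFNA1: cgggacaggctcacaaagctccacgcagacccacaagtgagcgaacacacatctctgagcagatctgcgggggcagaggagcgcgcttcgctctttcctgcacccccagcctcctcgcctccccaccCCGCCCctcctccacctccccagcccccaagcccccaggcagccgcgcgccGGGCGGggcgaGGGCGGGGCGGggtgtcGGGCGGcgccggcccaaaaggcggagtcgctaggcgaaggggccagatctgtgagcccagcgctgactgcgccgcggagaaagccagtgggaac
The GC box occurred 5 times in the EFNA1 window and 2 times in each of the others, and 45.0% of 35116 promoter windows of the same length hold it. The CCAAT box occurred 1 time, in the EFNA4 window, and 34.6% of all windows hold it. The 3 windows held neither the E-box CACGTG nor ACGTG, the core of the hypoxia response element, which 7.26% and 21.4% of all windows hold (each CACGTG also matches ACGTG). The GC content was 58.3% in the EFNA4 window, 69.3% in the EFNA3 window and 71.7% in the EFNA1 window. These are matches of letters only.

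Eph receptors, the kinases that ephrins activate, included 1 gene that fell and 0 that rose among 6 tested. Over all genes tested 5.64% fell and 5.89% rose, and counts over so few genes are a description. EPHA2, the EphA receptor with the highest FPKM (deposited values, scaled for gene length and depth), measured 307, 312 and 459.8 CPM in scramble and 243, 237 and 245 CPM in knockdown libraries. Scramble replicate 3 was the highest, and all knockdown libraries lay below all scramble libraries. The log2 fold change of EPHA2 was -0.57 (SE 0.18, edgeR adjusted p = 0.0788), and it passed by DESeq2 (-0.57, adjusted p = 0.049) and without scramble replicate 3 (-0.36, adjusted p = 3.76e-08). EPHB2, a receptor for ephrin-B ligands, measured 72.6, 78.8 and 113 CPM in scramble and 46.9, 45.6 and 47.8 CPM in knockdown libraries. EPHB2 fell with a log2 fold change of -0.91 (SE 0.19, edgeR adjusted p = 0.0156). This call did not hold without knockdown replicate 1 (-0.91), 2 (-0.90) or 3 (-0.93). EPHB4, the EphB receptor with the highest FPKM, measured 80.2, 78.4 and 121 CPM in scramble and 69.8, 69.4 and 65.3 CPM in knockdown libraries. The fitted log2 change was -0.45 (adjusted p = 0.186), and -0.22 (adjusted p = 0.0024) without scramble replicate 3. EPHB4 overlaps SLC12A9, and the counting is not stated to use strand. EPHA10 (-0.26), EPHA5 (-0.05) and EPHB3 (-0.83) were not called in either setting, and EPHA1, EPHA3, EPHA4, EPHA6, EPHA8, EPHB1 and EPHB6 were too low to be tested, at 1.29 CPM or less. Among ephrin-B ligands, which span the membrane, EFNB1 measured 11.1, 9.92 and 13.2 CPM in scramble and 11.2, 13.9 and 11.3 CPM in knockdown libraries, with a log2 fold change of 0.09 (SE 0.18, adjusted p = 0.816). EFNB3 was at -1.16 (adjusted p = 0.0742), with at most 21 counts in a library, and EFNB2 was not tested.

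Secreted semaphorins, which bind neuropilins, included 3 genes that rose and 0 that fell among 6 tested. SEMA3B (Entrez gene 7869, chromosome 3), known as a candidate tumour suppressor of lung cancer, measured 57.6, 61.3 and 83.3 CPM in scramble and 244, 258 and 249 CPM in knockdown libraries. It rose with a log2 fold change of 1.89 (SE 0.18, edgeR adjusted p = 0.00022). SEMA3F (Entrez gene 6405), which binds NRP2 and lies near SEMA3B on chromosome 3, rose from 4.73, 4.08 and 3.48 CPM to 11.1, 12.2 and 12.6 CPM, with a log2 fold change of 1.54 (SE 0.19, edgeR adjusted p = 0.00096). Of the protein-coding genes listed between them, only GNAI2 was tested, at -0.16 (adjusted p = 0.661). Antisense genes overlap SEMA3B and SEMA3F, and reads from them cannot be told apart without strand. SEMA3D (Entrez gene 223117, chromosome 7) was nearly undetected in scramble libraries, at 0.557, 0.927 and 0.0967 CPM, and measured 6.39, 9.37 and 7.44 CPM in knockdown libraries. Its log2 fold change was 3.83 (SE 0.43, edgeR adjusted p = 0.000604). Summed counts of SEMA3D were 17 in scramble and 233 in knockdown libraries. Their ratio was 14.5, with an exact 95% interval of 8.87 to 25.4, which covers counting error only. SEMA3D was tested only through the knockdown group, in which it was high, so these values are a description.

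SEMA3C, SEMA3E and SEMA3A had their lowest scramble level in scramble replicate 3. SEMA3C, the semaphorin with the highest FPKM in scramble replicates 1 and 2, measured 299, 296 and 129.8 CPM in scramble and 176, 189 and 169.6 CPM in knockdown libraries. The knockdown libraries thus lay between scramble replicate 3 and the other scramble libraries. The fitted log2 change was -0.44 (SE 0.28, adjusted p = 0.386), and -0.74 (adjusted p = 3.05e-12) without scramble replicate 3. SEMA3E, a ligand of PLXND1, measured 2.23, 2.22 and 0.387 CPM in scramble and 0.699, 0.898 and 1.29 CPM in knockdown libraries. Its log2 fold change was -0.75 (adjusted p = 0.463), and it passed without scramble replicate 3 at -1.20 (adjusted p = 0.0085). SEMA3A, the founding repellent of the family, was at 0.49 (adjusted p = 0.316), and at 0.20 (adjusted p = 0.0243) without that library. SEMA3G was not tested.

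Of the membrane-bound semaphorins, 1 rose and 2 fell among 9 tested, or 33.3% called against 11.5% of all genes tested. SEMA4G (chromosome 10) rose from 19.02, 20.9 and 29.2 CPM to 45.4, 46.97 and 46.03 CPM, with a log2 fold change of 1.00 (SE 0.19, edgeR adjusted p = 0.00985). SEMA4G overlaps MRPL43. Its call was lost without knockdown replicate 1 (1.01), 2 (0.98) or 3 (1.00). SEMA4B, the membrane semaphorin with the highest FPKM, measured 199, 210.1 and 301 CPM in scramble and 144, 149 and 146 CPM in knockdown libraries. It fell with a log2 fold change of -0.69 (SE 0.18, edgeR adjusted p = 0.0399). The call was lost without scramble replicate 2 (-0.78), without knockdown replicate 1 (-0.68), 2 (-0.71) or 3 (-0.69). SEMA6B, which signals through A-type plexins, fell from 10.02, 10.9 and 15.3 CPM to 5.99, 6.48 and 4.86 CPM, with a log2 fold change of -1.06 (SE 0.22, edgeR adjusted p = 0.0141). This call was lost without knockdown replicate 1 (-1.09) or 3 (-0.95). SEMA4C (-0.63, adjusted p = 0.0606) and SEMA6C (0.63, adjusted p = 0.138) did not pass with all 6 libraries and passed without scramble replicate 3 (-0.46 and 0.82). SEMA4D, SEMA4F, SEMA5A and SEMA6D passed in neither setting, with log2 fold changes of -0.62 to 0.19. SEMA4A, SEMA5B, SEMA6A and SEMA7A reached at most 1.02 CPM and were not tested.

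The neuropilins are co-receptors that bind secreted semaphorins and also vascular endothelial growth factors. NRP2 (Entrez gene 8828, chromosome 2) rose from 87.5, 89.1 and 105 CPM in scramble to 179.5, 163 and 179 CPM in knockdown libraries, where the groups did not overlap. The fitted log2 change was 0.89 (SE 0.15, edgeR adjusted p = 0.00528). NRP1 measured 332, 344 and 185 CPM in scramble and 285, 295 and 290.0 CPM in knockdown libraries. Scramble replicate 3 lay below and scramble replicates 1 and 2 above all knockdown libraries. The log2 fold change of NRP1 was 0.02 (SE 0.22, adjusted p = 0.975), and it turned to -0.22 (adjusted p = 2.77e-05) without scramble replicate 3. The deposited mean transcript length of NRP1 was 4986 bases in scramble replicate 3 and between 5648 and 5791 bases in the other libraries. This length is a mean over the transcripts of a gene, and NRP1 is known to have shorter transcripts that encode soluble forms.

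Of 7 tested plexins, the signalling receptors of semaphorins, 1 was higher and 0 lower. The share called was 14.3%, near the 11.5% of all genes tested. Without scramble replicate 3 it was 71.4%, against 49.5% of all genes. PLXND1 (Entrez gene 23129, chromosome 3), a receptor with roles in vessel patterning, rose from 60.4, 61.1 and 99.0 CPM to 133, 136 and 136 CPM. Its log2 fold change was 0.88 (SE 0.21, edgeR adjusted p = 0.0258), and 1.15 without scramble replicate 3, its highest scramble library. The call was lost without scramble replicate 1 (0.74) or 2 (0.75) and without knockdown replicate 1 (0.89), 2 (0.87) or 3 (0.87). PLXNB2, the plexin with the highest FPKM, measured 312, 319 and 455 CPM in scramble and 281, 271 and 277 CPM in knockdown libraries. The fitted log2 change was -0.39 (SE 0.18, adjusted p = 0.202), and -0.19 (adjusted p = 0.000147) without scramble replicate 3. PLXNA1, PLXNA2, PLXNA3, PLXNB1 and PLXNB3 had log2 fold changes of -0.41 to 0.10 and did not pass with all 6 libraries. Without scramble replicate 3 PLXNA1 (-0.14), PLXNA3 (-0.33) and PLXNB1 (0.32) passed. PLXNA4 and PLXNC1 were not tested.

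Of 4 tested netrin receptors, 2 fell, 1 rose and 1 was not called, and the 2 tested netrin ligands fell. Over all genes tested 5.64% fell and 5.89% rose. UNC5B (Entrez gene 219699, chromosome 10), a repulsive netrin receptor and dependence receptor, measured 83.1, 86.8 and 123 CPM in scramble and 24.1, 24.7 and 22.0 CPM in knockdown libraries. It fell with a log2 fold change of -2.05 (SE 0.20, edgeR adjusted p = 0.000237), the most negative value of the tested members. An antisense gene, UNC5B-AS1, overlaps it. NEO1, the DCC relative that binds netrins and repulsive guidance molecules, measured 186, 185 and 211 CPM in scramble and 107, 114 and 115 CPM in knockdown libraries. NEO1 fell with a log2 fold change of -0.79 (SE 0.14, edgeR adjusted p = 0.00726), and the call was lost without knockdown replicate 1 (-0.76), 2 (-0.81) or 3 (-0.81). UNC5D had 4, 9 and 0 counts in scramble and 26, 21 and 24 counts in knockdown libraries. Its ratio of summed counts was 5.79, with an exact 95% interval of 3.18 to 11.4 for counting error only, and the log2 fold change was 2.50 (SE 0.57, edgeR adjusted p = 0.0217). The call of UNC5D was lost without scramble replicate 1 (2.43) and without knockdown replicate 1 (2.43), 2 (2.57) or 3 (2.50). UNC5D was tested only through the knockdown group, in which it was high, so these values are a description. UNC5C was at -0.29 (adjusted p = 0.692). UNC5A and DCC stayed at or under 0.30 CPM in every library, where 3 counts, the limit that a count of 0 allows, correspond to 0.278 to 0.30 CPM.

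NTN4, a basement membrane netrin, measured 177, 179 and 107 CPM in scramble and 83.7, 87.0 and 76.5 CPM in knockdown libraries. Here scramble replicate 3 was the scramble library nearest to the knockdown libraries. The log2 fold change of NTN4 was -0.90 (SE 0.21, edgeR adjusted p = 0.0239), and -1.11 (adjusted p = 3.5e-14) without scramble replicate 3. Its call was lost without scramble replicate 1 (-0.80) or 2 (-0.79) and without knockdown replicate 1 (-0.91), 2 (-0.95) or 3 (-0.85). NTN1, the classical secreted netrin, measured 2.97, 2.97 and 3.97 CPM in scramble and 1.30, 1.89 and 1.29 CPM in knockdown libraries. It fell with a log2 fold change of -1.14 (SE 0.27, edgeR adjusted p = 0.0262), and the call was lost without scramble replicate 2 (-1.21) and without knockdown replicate 1 (-1.04), 2 (-1.35) or 3 (-1.04). NTN3 and NTN5 were not tested with all 6 libraries. NTN5 had 7, 6 and 5 counts in scramble and 8, 11 and 11 counts in knockdown libraries, and its log2 fold change without scramble replicate 3 was 0.71 and was not called.

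Slits, the secreted ligands of roundabout receptors, included 1 gene that rose, 1 that fell and 1 that was not called. Among all genes tested 5.89% rose and 5.64% fell. SLIT1 measured 6.68, 6.49 and 9.87 CPM in scramble and 3.90, 4.69 and 3.57 CPM in knockdown libraries. It fell with a log2 fold change of -0.92 (SE 0.23, edgeR adjusted p = 0.0337), and the call was lost without knockdown replicate 1 (-0.89), 2 (-1.04) or 3 (-0.83). SLIT2 had 3, 1 and 0 counts in scramble and 15, 22 and 17 counts in knockdown libraries, at most 2.19 CPM. SLIT2 was tested only through the knockdown group, in which it was high, so its values are a description. The ratio of its summed counts was 14.3, with an exact 95% interval of 5.27 to 54.4 for counting error only, and the log2 fold change was 3.72 (SE 0.58, edgeR adjusted p = 0.0034). SLIT3, the slit with the highest FPKM, measured 33.2, 35.3 and 47.5 CPM in scramble and 29.1, 28.7 and 28.6 CPM in knockdown libraries. Its log2 fold change was -0.43 (SE 0.18, adjusted p = 0.177), and -0.25 (adjusted p = 0.00789) without scramble replicate 3. Of the receptors, ROBO1 measured 19.8, 18.0 and 8.90 CPM in scramble and 26.6, 30.0 and 32.4 CPM in knockdown libraries. All knockdown libraries lay above all scramble libraries, and the log2 fold change was 0.93 (SE 0.27, edgeR adjusted p = 0.0586). ROBO1 passed without scramble replicate 3 (0.65, adjusted p = 6.8e-06), without scramble replicate 1 (1.13, adjusted p = 0.0471) and by DESeq2 (0.92, adjusted p = 0.0111). ROBO3, known from the midline crossing of commissural axons, measured 2.78, 3.06 and 5.51 CPM in scramble and 1.70, 1.30 and 1.39 CPM in knockdown libraries. It fell with a log2 fold change of -1.36 (SE 0.33, edgeR adjusted p = 0.0276), and the call was lost without knockdown replicate 1 (-1.48), 2 (-1.29) or 3 (-1.33). ROBO2 and ROBO4 stayed at or under 0.0999 CPM.

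Levels between genes were compared by FPKM, as deposited. EPHA2 ranked first of the 69 members in each scramble library, at 80.1, 81.8 and 111 FPKM, and at rank 3 in each knockdown library, at 59.4, 58.0 and 60.2 FPKM. EFNA1, a ligand of EPHA2, was at 19.7, 20.2 and 28.4 FPKM in scramble libraries, in rank 9, 9 and 6, and ranked first in each knockdown library, at 134, 134 and 136 FPKM. SEMA3B ranked 8 in each scramble library and 2 in each knockdown library, where it was at 83.0, 88.1 and 84.9 FPKM. NRP1, PLXNB2, SEMA4B and SEMA3C followed in the knockdown libraries, at 31.8 to 49.6 FPKM. NTN4 went from rank 6, 6 and 7 to rank 9, and NEO1 from rank 7, 7 and 5 to rank 12, 11 and 11. The neighbours NRP1 and PLXNB2 did not hold a fixed order in the scramble libraries, since scramble replicate 3 had the 2 in the reverse order of the other scramble libraries.

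**Figure D4:**
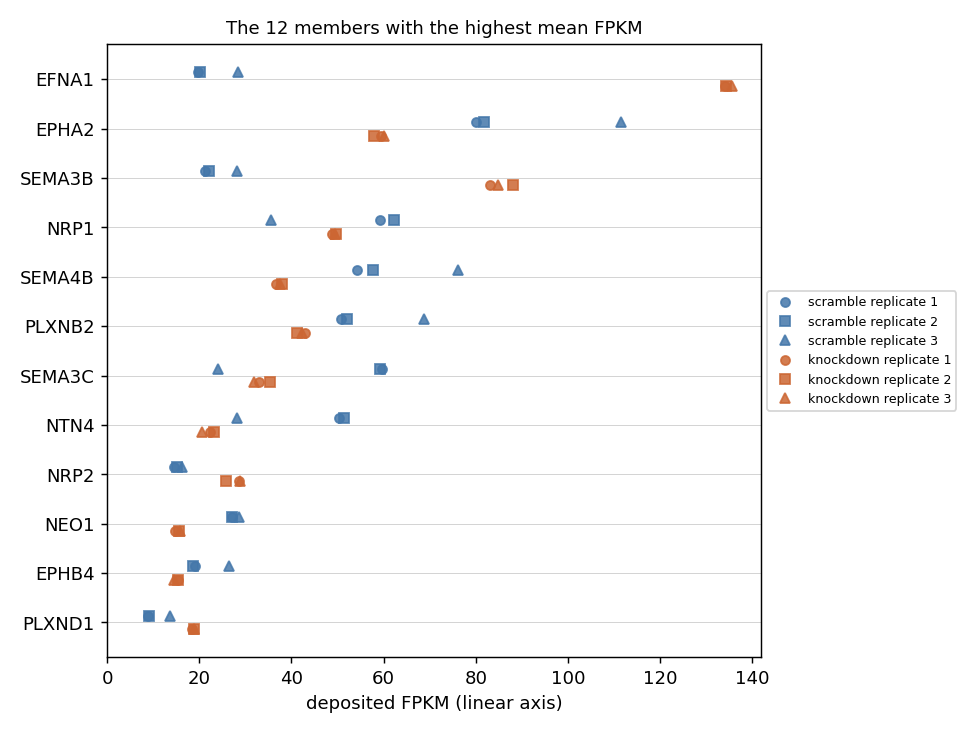
Deposited FPKM in each library (linear axis) of the 12 members with the highest mean FPKM, with scramble libraries in blue, knockdown libraries in orange and a marker shape for each replicate number. EFNA1 and SEMA3B lie to the right in the knockdown libraries, and EPHA2 has the highest value in each scramble library.

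Other genes of the pathway, a list of co-receptors, intracellular mediators and cytoskeletal effectors, also moved in both directions. Of 68 tested, 7 rose and 14 fell, which is 30.9% against 11.5% of all genes, with a median log2 fold change of -0.10 against 0.02. Without scramble replicate 3, 17 of 69 rose and 33 fell, or 72.5% against 49.5%. This list, too, was chosen with earlier results of these data known, so its counts are a description. The adhesion molecules L1CAM, a semaphorin co-receptor, and its relative CHL1 rose. L1CAM measured 12.8, 13.9 and 18.3 CPM in scramble and 56.3, 57.3 and 56.5 CPM in knockdown libraries (log2 fold change 1.92, SE 0.18, adjusted p = 0.000229 by edgeR). CHL1 measured 9.18, 9.27 and 5.32 CPM in scramble and 43.4, 43.8 and 42.2 CPM in knockdown libraries (2.44, SE 0.23, adjusted p = 0.000191 by edgeR). DAPK1, a kinase that acts downstream of UNC5 receptors in cell death, rose from 158, 154 and 162 CPM to 326, 332 and 342 CPM (1.08, SE 0.13, adjusted p = 0.00103 by edgeR). The gene of the actin-binding protein ABLIM3 fell from 14.9, 15.5 and 17.4 CPM to 2.50, 1.496 and 2.48 CPM (-2.88, edgeR adjusted p = 7.85e-05).

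Of 8 collapsin response mediators and MICALs, which carry semaphorin signals to the cytoskeleton, 5 were lower and 0 higher, with and without scramble replicate 3. Over all genes tested, 5.64% were called lower with all 6 libraries and 23.8% without that library. DPYSL3 fell from 30.3, 34.3 and 40.2 CPM to 9.49, 11.3 and 12.7 CPM (log2 fold change -1.65, SE 0.19, adjusted p = 0.000713 by edgeR). DPYSL5 fell at -1.04 (adjusted p = 0.00302) and the oxidoreductase gene MICAL2 at -1.16 (adjusted p = 0.00329). The pathway genes named with values here were called in each of 13 other settings, which did not include the GC correction. Among adaptors and kinases 2 of 22 rose and 3 fell, or 22.7% called against 11.5% of all genes tested.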

How the data were processed

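RNA of 6 libraries, 3 per group, was measured. The authors deposited RSEM expected counts, which are estimated counts per Entrez gene, with FPKM values and a gene length in bases, per the file headers. This deposited length, treated as a score, varies between libraries as a mean over a gene's transcripts. The build hg19 and the tools RSEM, BWA and Bowtie2 are named per the submitters' processing notes, with the roles of the aligners not given in the sources used here. Genes not listed in a file were taken as 0 counts. Symbols came from RefSeq for GRCh38.p14 by Entrez ID (20727 matched, 97 not, with 0.147% of counts); coordinates are printed for promoter windows of that build only, and promoters were matched for 59 members.

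Expected counts were rounded and tested with edgeR 4.0.16 in R 4.3.3: filterByExpr (minimum count 10, total 15), TMM, glmQLFit and glmQLFTest without covariates, Benjamini-Hochberg over all genes tested, calls at 0.05. Errors of log2 fold changes come from the F statistic. Total counts per library (10229890 to 10647587) limit the precision of genes with few counts. Alternatives used DESeq2 1.42.0, limma 3.58.1 and the other scalings, filters and left-out libraries named in the closing section. The procedure was tested on simulated data, where it recovered 82 of 100 changes of 2-fold and 100 of 100 of 4-fold, with 5 false calls. All simulated libraries had the same spread, and the changed genes had many counts. The simulation therefore does not cover a shifted library such as scramble replicate 3, or genes with few counts. The members and lists were chosen with earlier results of these data known. Named with values in each library were members called with all 6 libraries, members called without scramble replicate 3 with a log2 fold change of at least 1 in size, the member with the highest FPKM in each role, and the 8 called pathway genes with the smallest p-values, of which 1 is not reported here. SEMA3C, EFNA4 and FPKM ranks were added after their values were seen.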

Additional observations from a re-analysis of the deposited data

How the results depend on the processing

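Scaling by upper quartile or RLE, testing without a filter, a filter of 1 CPM in 3 libraries and limma-voom kept 10 members lower and 10 or 11 higher, and DESeq2 called 11 higher and 12 lower. Leaving out 1 library at a time gave 729 to 7439 called genes (1708 with all 6), 7 to 14 members higher, 1 to 20 members lower, 5 to 17 other pathway genes higher and 5 to 33 lower; the highest counts are those without scramble replicate 3 and the lowest those without a knockdown library. Members called lower were 6 without scramble replicate 2. A correction for GC content and length, chosen after seeing the data, was fitted to the 14231 tested genes with a GC value, 46 members among them. It called 5348 genes, 13 members higher and 19 lower, and 9 other pathway genes higher and 32 lower. Calls thus rose over all genes too, from 1708 without the correction. The log2 fold change of NRP1 (0.02, and -0.22 to 0.16 with 1 library left out) turned to -0.01 with upper-quartile scaling, -0.22 without scramble replicate 3, -0.0018 without knockdown replicate 2 and -0.18 with the GC and length correction. That of EFNB1 (0.09, and -0.02 to 0.20 with 1 library left out) turned to -0.01 without scramble replicate 2 and -0.02 without knockdown replicate 2. The cause of these changes was not tested. With the replicate number as a block 1654 genes, 11 members higher and 9 lower were called, where ROBO1 passed and SEMA4B did not (-0.67, adjusted p = 0.0518). Deviations of same-numbered libraries from their group means correlated at -0.024, -0.018 and -0.023, and those of other pairs at -0.051 to 0.064. Whether same-numbered libraries shared a culture or a batch is not stated. These values cannot decide it, with 3 libraries per group and scramble replicate 3 far from the other scramble libraries. The median log2 fold change of tested members lay between -0.37 and -0.20 in all settings. Depth limits SLIT2, UNC5D and SEMA3D, whose scramble counts summed to 4, 13 and 17.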
